A study of Mus musculus with 16 samples.

Results

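The mouse genome carries 39 protein-coding Hox genes in 4 clusters, and their chromatin was examined by ATAC-Seq in progenitor cells that an introduced HoxB8 keeps dividing. The members were all protein-coding genes of the GENCODE M21 annotation (GRCm38, mm10) named Hoxa, Hoxb, Hoxc or Hoxd followed by a number, which is 39 of 21938 protein-coding genes. The regions described are those with a peak in at least 1 library inside a cluster or within 20 kb of its ends, which is 22 of 90541 regions genome-wide. The rule used gene names and positions only, and no measured value.

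ATAC-Seq uses the Tn5 transposase to insert sequencing adapters into open chromatin, so that a pile of insertions (a peak) marks an accessible stretch of DNA. All 16 libraries came from Lin- fetal liver progenitors that were immortalized by a retrovirus carrying an estrogen-regulated HoxB8 (ER-HoxB8), grown with β-estradiol, exposed to a further, GFP-expressing retrovirus for 3 days and isolated by FACS. The 4 groups of 4 libraries were cells with an intact -77 enhancer of Gata2 and an empty virus (hi-77+/+ empty), cells lacking that enhancer on both alleles and given an empty virus (hi-77-/- empty), and enhancer-deleted cells given a virus with murine Gata2 (hi-77-/- GATA2) or with the 9aa-Ins variant, which holds an insertion of 9 amino acids (hi-77-/- 9aa-Ins). All groups share the ER-HoxB8 vector, so there was no library without it, and the cells are a line selected by that vector and not freshly isolated progenitors. The paper calls the 4 ATAC-Seq libraries of each hi-77-/- group biological replicates. Whether libraries of a group came from separate cultures is not given in the sources used here. How much of the spread between them is technical is therefore not known.

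Hox genes encode homeodomain transcription factors, and their order along each cluster follows the order in which they are used along the body axis of the embryo. In blood formation, several genes of the Hoxa and Hoxb clusters, Hoxa7, Hoxa9, Hoxa10 and Hoxb4 among them, are known from stem and progenitor cells and are turned down as differentiation proceeds. Silent Hox genes are held by Polycomb complexes, active ones need the MLL methyltransferase (Kmt2a), and CTCF sites between genes separate the states within a cluster.

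The deposited peak lists held 50195 to 112267 peaks per library, and the 49000 most significant peaks of each were used, with rank 1 as the most significant. The lists give no read counts, so sequencing depth is unknown and a peak that is missing may only be undetectable at that depth. Peaks of the lists used had a median width from 177 bp in hi-77-/- GATA2 replicate 1 to 378 bp in hi-77-/- 9aa-Ins replicate 1. Of 9 hematopoietic progenitor markers, Ptprc, Spi1 and Kit among them, 9 had a peak at a transcription start site (TSS) in 16 of 16 libraries. Of 4 hepatocyte markers 0 had one in any library, of 4 endothelial markers only Pecam1 had one (14 libraries), and of 3 stromal markers only Pdgfra had one (16 libraries).

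Peaks covered fewer bases of the 4 clusters together than of the genome, while regions were about as frequent. The Hoxa window (chr6:52135590-52280880, 145 kb with 11 genes) held 7 regions, the Hoxb window (chr11:96174316-96388256, 214 kb with 10 genes) held 7, the Hoxc window (chr15:102901103-103056852, 156 kb with 9 genes) held 3 and the Hoxd window (chr2:74648310-74785142, 137 kb with 9 genes) held 5. This is 3.38 regions per 100 kb, against 3.32 over the chromosomes used, so the pooled number of regions was near that of the genome. By window it was 4.82 in Hoxa against 3.17 on chromosome 6, and 3.27 in Hoxb against 5.26 on chromosome 11. In Hoxc it was 1.93 against 3.31 on chromosome 15, and in Hoxd 3.65 against 4.27 on chromosome 2. The bases covered were fewer, at 0.176% to 0.392% of the 4 windows per library (median 0.283%) against 0.472% to 0.953% of all chromosomes (median 0.677%). The Hoxa window by itself was covered at 0.298% (hi-77-/- GATA2 replicate 1) to 0.845% (hi-77-/- empty replicate 2), which overlapped the range of all chromosomes. The highest values were 0.324% in Hoxb (hi-77-/- empty replicate 3), 0.355% in Hoxc (hi-77-/- 9aa-Ins replicate 2) and 0.474% in Hoxd (hi-77+/+ empty replicate 3). The regions were 84 to 614 bp long with a median of 228 bp, against 271 bp for all regions. Of the 22 regions, 4 (18.2%) had a peak in all 16 libraries against 23.4% of all regions, and 3 (13.6%) had a peak in a single library against 21.1%.

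**Figure D1:**
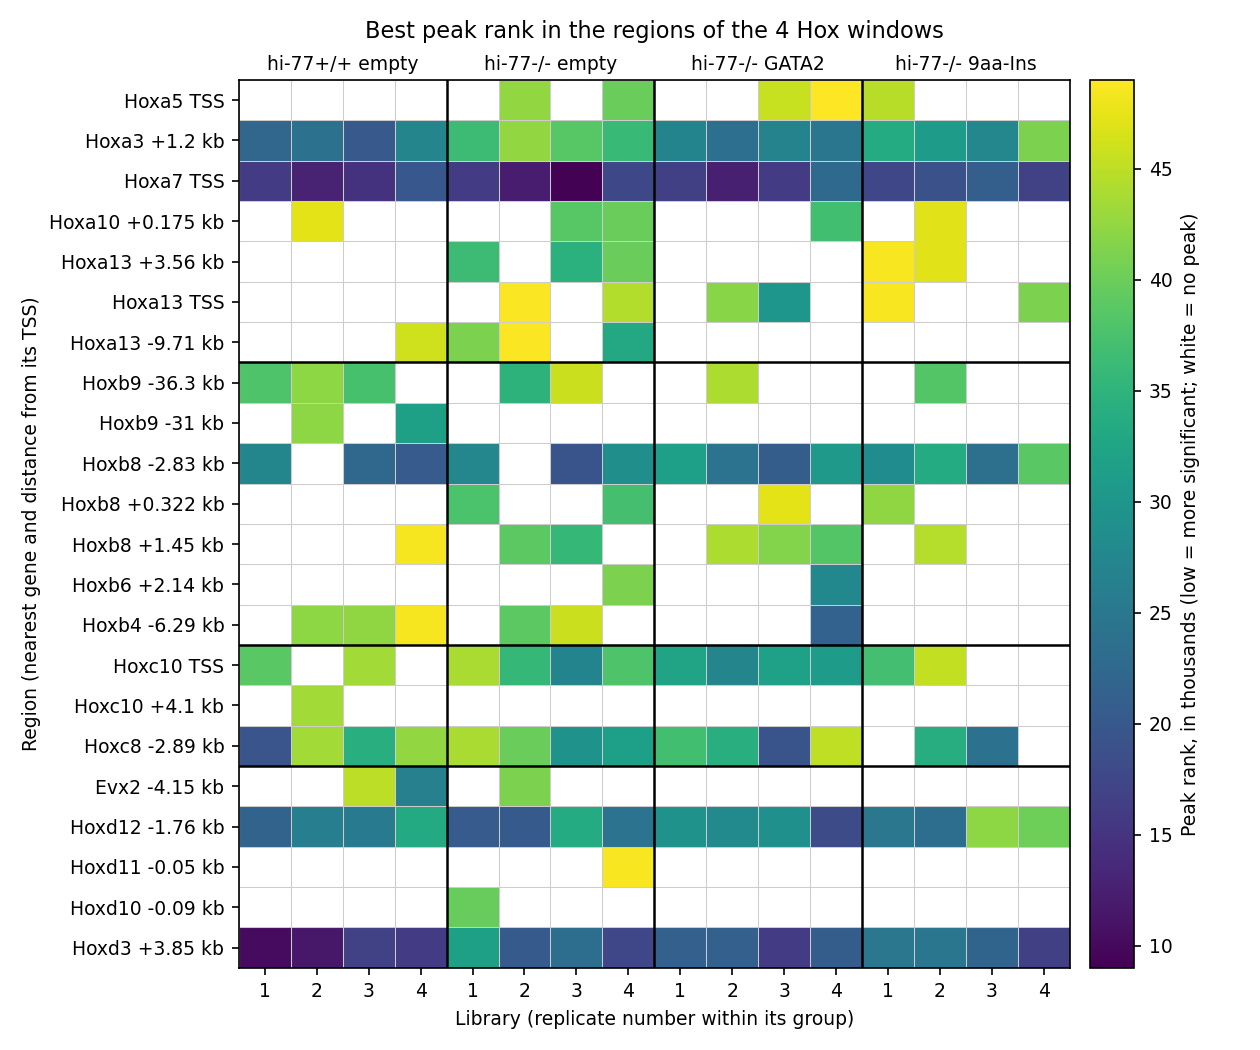
Best peak rank of each of the 22 Hox window regions (rows, named by the nearest gene and the distance from its TSS in kb, ordered along each cluster) in each of the 16 libraries (columns, by group), with dark cells for the most significant peaks and white for no peak among the 49000. The rows for the Hoxa3 intron (Hoxa3 +1.2 kb), the Hoxa7 TSS, the region upstream of Hoxd12 and the Hoxd3 and Hoxd4 intron (Hoxd3 +3.85 kb) are filled in all 16 libraries, and most others are filled in some libraries of several groups.

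Regions with a peak in 14 or more libraries numbered 6. Only 1 of them lay on a TSS, that of Hoxa7 (chr6:52221456-52222069), where it covered the 5' untranslated region. Another Hoxa region (chr6:52211564-52211917) lay between Hoxa6 and Hoxa7 in an intron of long Hoxa3 transcripts. The Hoxd regions lay between Hoxd13 and Hoxd12 (chr2:74672942-74673256, intergenic, 1.76 kb upstream of Hoxd12) and in an intron shared by Hoxd3 and Hoxd4 (chr2:74715774-74716223). The other 2 lay 2.83 kb upstream of Hoxb8, between Hoxb9 and Hoxb8 (chr11:96278845-96279080), and 2.89 kb upstream of Hoxc8, between Hoxc9 and Hoxc8 in a Hoxc5 intron (chr15:102987501-102987717). In the whole deposited lists all 6 had a peak in 16 of 16 libraries.

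The sequences around the summits of these 6 regions are shown because 5 of them hold, near the summit, the short core of the CTCF motif, which is in capitals (the word AGGTGGC in 1 region, the variant AGATGGC in 3 regions and the variant AGGAGGC in 1 region, on either strand). Each is 121 bases of GRCm38, plus strand, centred on the median summit, except for Hoxa7, where only the 27 bases about the core are given.
Hoxa7 TSS, chr6:52221799-52221825: gagccacactGCCATCTcctggaattt
Hoxa3 intron, chr6:52211684-52211804: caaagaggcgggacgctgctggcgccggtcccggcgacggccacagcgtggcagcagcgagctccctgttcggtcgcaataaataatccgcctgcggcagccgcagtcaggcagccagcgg
Hoxb9 to Hoxb8, chr11:96278900-96279020: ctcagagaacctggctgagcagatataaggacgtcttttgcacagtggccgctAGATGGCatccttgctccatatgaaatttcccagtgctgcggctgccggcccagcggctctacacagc
Hoxc9 to Hoxc8, chr15:102987543-102987663: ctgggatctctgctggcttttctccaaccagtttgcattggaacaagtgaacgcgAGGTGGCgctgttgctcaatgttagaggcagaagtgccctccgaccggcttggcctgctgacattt
Hoxd13 to Hoxd12, chr2:74673092-74673212: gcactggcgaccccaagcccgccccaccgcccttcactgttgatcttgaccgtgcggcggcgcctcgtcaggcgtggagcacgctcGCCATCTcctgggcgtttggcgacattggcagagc
Hoxd3 and Hoxd4 intron, chr2:74715887-74716007: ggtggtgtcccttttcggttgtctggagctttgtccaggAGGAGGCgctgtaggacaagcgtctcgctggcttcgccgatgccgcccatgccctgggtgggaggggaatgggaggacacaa

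The core lay 2 bp from the median summit in the Hoxc9 to Hoxc8 region, 4 bp in the Hoxb9 to Hoxb8 region, 15 bp at Hoxa7, 18 bp in the Hoxd3 and Hoxd4 intron and 29 bp between Hoxd13 and Hoxd12. The Hoxa3 intron held no such core within 60 bp of its summit. The word AGGGGGC and the word AGGTGGC, searched alone and on both strands, were in 6 of the 22 regions (27.3%) against 22.0% of all 90541 regions. The variant AGATGGC and the variant AGGAGGC were added after these sequences had been seen, and with all 4 words 5 of the 6 regions held a core in the 121 bases about the summit, against 21.7% of the 26869 regions found in 14 or more libraries genome-wide. Because these words came from the same 6 sequences, that share was raised by their choice. Over whole regions the first 2 words were in 3 of the 6 against 38.3% of those 26869, and all 4 words in 6 of the 6 against 60%. A match is a description of the letters and not a bound site. The GATA motif WGATAR (spelled as AGATAA and as AGATAG, or with a leading T as TGATAA and as TGATAG) was in 2 of the 22 regions (9.09%) against 38.7% of all regions, the MEIS motif TGACAG in 3 (13.6%) against 27.1%, and the HOX-PBX motif TGATTNAT in 1 (4.55%) against 3.91%. The share with WGATAR was lower in the Hox windows, where regions were also shorter, and the part of length in this was not tested. Among regions found in 14 or more libraries, WGATAR was in 1 of the 6 against 55.1% of the 26869.

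The 6 regions were moderate peaks. The Hoxa7 TSS had a median rank of 16372, the Hoxd3 and Hoxd4 intron of 20556, the Hoxd13 to Hoxd12 region of 25872 and the Hoxa3 intron of 27382. Among the 21167 regions with a peak in all 16 libraries, 67.4% ranked better than the Hoxa7 TSS and 94.7% better than the Hoxa3 intron. The Hoxb9 to Hoxb8 region had a median rank of 27475 over its 14 libraries and the Hoxc9 to Hoxc8 region of 34061 over 14.

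The start sites of the Hox genes were largely without peaks. A TSS peak, which is a peak within 500 bp of the start of a protein-coding transcript, was found in at least 1 library for 8 of 39 genes, and the other 31 (79.5%) had none in 16 libraries, against 42.9% of all 21938 protein-coding genes. Hoxa7 alone had a TSS peak in 16 of 16 libraries, which is 1 of 39 genes (2.56%) against 46.1% of all genes. Hox promoters are rich in GC and CpG, with a median of 57.4% GC and an observed to expected CpG ratio of 0.678 in the 1 kb about the start, against 54.7% and 0.552 for all genes. Of the 6242 protein-coding genes at or above both Hox medians, 78.3% had a TSS peak in all 16 libraries. With all deposited peaks, 20 of 39 Hox genes had a TSS peak in at least 1 library, and Hoxa7 remained the only gene with one in 16.

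Along the Hoxa cluster, TSS peaks fell on 4 of 11 genes. Hoxa7 had one in 4 of 4 libraries of each group. Hoxa13, a gene of limb and hindgut development, had one in 6 libraries (0 of hi-77+/+ empty and 2 of each other group). Hoxa5 had one in 5 libraries (0 of hi-77+/+ empty, 2 of hi-77-/- empty, 2 of hi-77-/- GATA2 and 1 of hi-77-/- 9aa-Ins). Hoxa10, known from myeloid progenitors, had one in 5 libraries (1, 2, 1 and 1 in the same order). Hoxa9, the gene next to Hoxa7 and a leukemia gene, had none in any library, also with all deposited peaks, and its TSS lay 4.12 kb from the nearest region. Hoxa2, Hoxa3, Hoxa4, Hoxa6 and Hoxa11 had none among the 49000 peaks.

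In the other clusters the count was lower. In the Hoxc cluster only Hoxc10 had TSS peaks, in 12 libraries (2 of hi-77+/+ empty, 4 of hi-77-/- empty, 4 of hi-77-/- GATA2 and 2 of hi-77-/- 9aa-Ins). In the Hoxd cluster Hoxd10 and Hoxd11 each had a TSS peak in 1 library, both of hi-77-/- empty. In the Hoxb cluster only Hoxb8 was counted, in 4 libraries, and those peaks lay on its first coding exon near an internal start site. Hoxb4, which expands stem cells when forced, had no TSS peak among the 49000 peaks and had one in 2 libraries with all deposited peaks. The paralogs of group 9 (Hoxa9, Hoxb9, Hoxc9 and Hoxd9) had none among the 49000 peaks.

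Deletion of the -77 enhancer was the first comparison, and it asks what chromatin differs when Gata2 loses its distal enhancer. The number of Hox genes with a TSS peak was 2, 2, 2 and 1 in hi-77+/+ empty replicates 1 to 4 and 4, 4, 3 and 7 in those of hi-77-/- empty. The groups did not overlap (1.75 ± 0.5 against 4.50 ± 1.73, SD, n = 4 libraries each), a difference of 2.75 genes with p = 0.0286 by a two-sided exact permutation test, the smallest p that 4 against 4 allows, and 0.114 after Benjamini-Hochberg adjustment over 4 comparisons. The difference did not pass the adjusted threshold of 0.05. The genes concerned were Hoxa5, Hoxa10, Hoxa13, Hoxb8, Hoxc10, Hoxd10 and Hoxd11, and the median rank was 36296 for the Hoxc10 region and 43181 for that of Hoxa13. The difference moved with the list length. With 24500 peaks per library it was 0, but no other value was possible there. The best rank of these genes was 27030 (Hoxc10 region), so only Hoxa7 was left to count in any library. In the whole lists the counts were 4, 11, 4 and 4 in hi-77+/+ empty and 7, 7, 9 and 7 in hi-77-/- empty, a difference of 1.75 genes (exact permutation p = 0.4). Without hi-77+/+ empty replicate 2, which held the 11, that difference was 3.5 genes (exact permutation p = 0.0286, and 0.114 after adjustment), a choice made after the counts had been seen. Over all protein-coding genes the TSS counts of the groups overlapped, at 11180 to 11365 genes in hi-77+/+ empty and 11246 to 11444 in hi-77-/- empty.

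**Figure D2:**
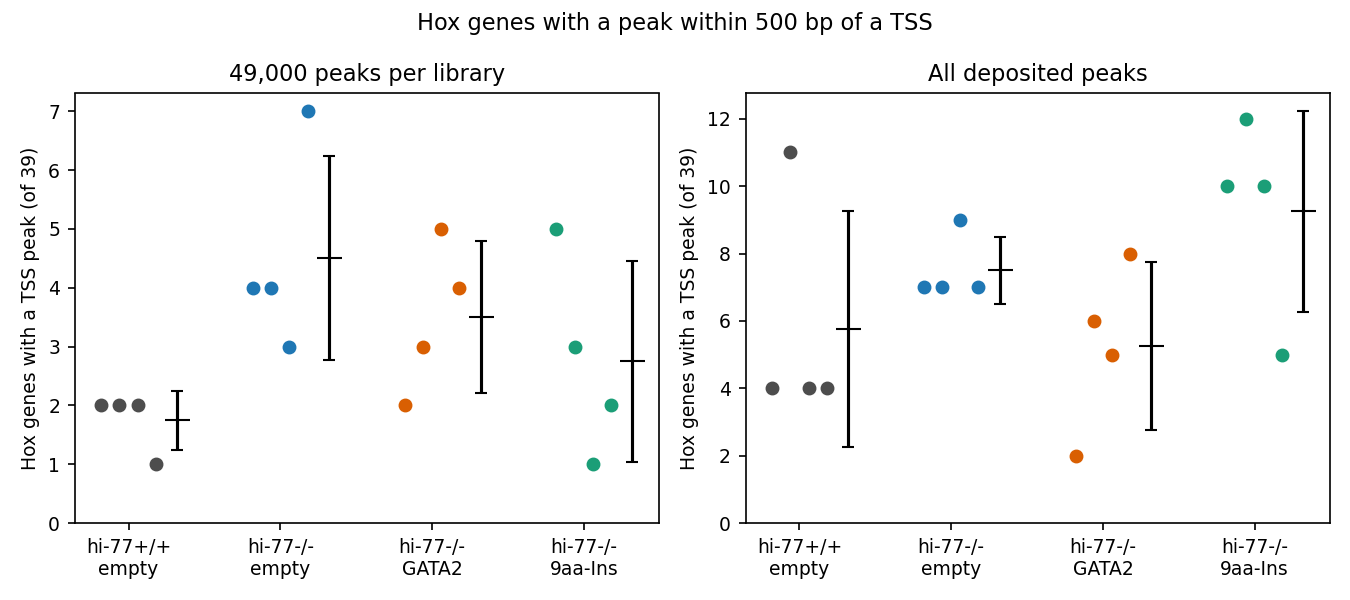
Number of Hox genes (of 39) with a peak within 500 bp of a TSS in each library, as points by group, with the mean and SD of the 4 libraries beside them, for the 49000 most significant peaks (left) and all deposited peaks (right). On the left the hi-77-/- empty libraries (3 to 7 genes) sit above the hi-77+/+ empty libraries (1 or 2), and on the right the groups overlap.

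By position, 0 of the 22 Hox regions opened or closed with the -77 deletion, where a call needs a peak in 4 of 4 libraries of a group and 0 of 4 of the other, against 5.72% of all regions. Likewise 0 of 39 Hox genes gained or lost a TSS peak by that call, against 1.04% of all genes. By rank, 2 of the 22 regions ranked lower in every hi-77-/- empty library than in any hi-77+/+ empty library, against 9.68% of all regions, and 0 ranked higher, against 11.0%. A count of 2 of 22 was near that background.

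The 2 regions were the Hoxa3 intron and the Hoxd3 and Hoxd4 intron. The Hoxa3 intron ranked 22179, 23913, 20139 and 27199 in hi-77+/+ empty replicates 1 to 4, and 36375, 42484, 38678 and 36156 in those of hi-77-/- empty. In the hi-77-/- GATA2 libraries it ranked 27072, 23577, 26820 and 24632. In the hi-77-/- 9aa-Ins libraries it ranked 33574, 31023, 27564 and 41120. The hi-77-/- empty libraries were thus below all hi-77+/+ empty and hi-77-/- GATA2 libraries, and the hi-77-/- 9aa-Ins libraries lay across the gap. This region holds 1 of the 2 WGATAR matches in the windows (AGATAA on the minus strand). WGATAR was in 55.1% of the 26869 regions found in 14 or more libraries genome-wide. Whether the match bears on these ranks was not tested. The centre of the match lay 86.5 bp from the median summit, and it is shown in capitals within 26 bases of the plus strand.
Hoxa3 intron, chr6:52211818-52211843: atgcggcgctTTATCTgcccctgccc

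The Hoxd3 and Hoxd4 intron ranked 10234, 11593, 16910 and 15954 in the hi-77+/+ empty libraries and 31720, 20376, 23386 and 17473 in the hi-77-/- empty libraries, so that 17473 in replicate 4 was just below 16910 in the other group. It ranked 15918 to 21291 in hi-77-/- GATA2 and 16635 to 24810 in hi-77-/- 9aa-Ins. Those libraries overlapped both empty groups or lay with hi-77-/- empty. The Hoxa7 TSS, in contrast, ranked 13034 to 19821, 9245 to 17707, 12527 to 22722 and 16813 to 21069 in the 4 groups in the same order, and all groups overlapped.

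**Figure D3:**
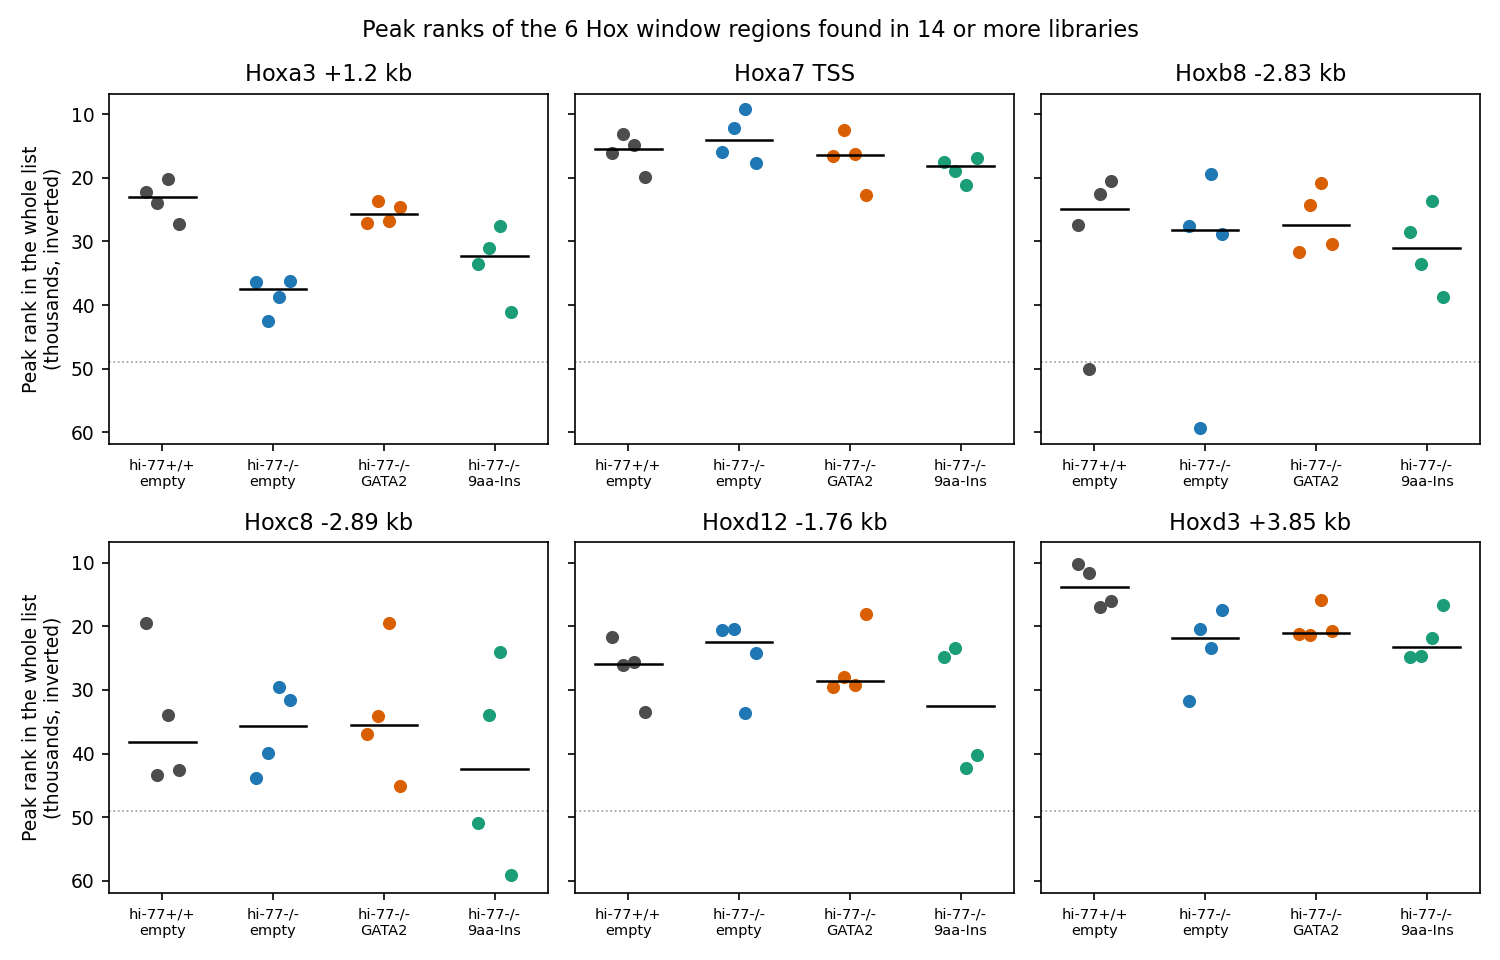
Rank of the best peak in the whole deposited list (axis inverted so that more significant peaks are higher) for the 6 regions found in 14 or more libraries, with a point for each library, a line at the median of each group and a dotted line at rank 49000. The panel for the intron of Hoxa3 shows the hi-77-/- empty libraries (36156 to 42484) below those of hi-77+/+ empty (20139 to 27199) and hi-77-/- GATA2 (23577 to 27072).

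GATA2 expression was compared with the empty virus in hi-77-/- cells, which asks what the factor changes in cells depleted of it. Of the Hox regions 0 of 22 opened or closed, against 3.96% of all regions, and 0 of 39 genes gained or lost a TSS peak, against 0.310% of all genes. By rank, 1 of 22 regions (the Hoxa3 intron, with the values above) ranked higher in every hi-77-/- GATA2 library, against 5.55% of all regions, and 0 ranked lower, against 7.60%. This comparison shares the hi-77-/- empty libraries with the previous one. The number of Hox genes with a TSS peak was 2, 3, 5 and 4 in the hi-77-/- GATA2 libraries, a mean 1 below that of hi-77-/- empty (two-sided exact permutation p = 0.571), so the groups did not differ beyond their spread.

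With the 9aa-Ins variant, 0 of 22 Hox regions opened or closed against the hi-77-/- empty libraries, with 1.52% of all regions called, and 0 of 39 genes gained or lost a TSS peak, with 0.0775% of all genes called. No Hox region ranked higher in every 9aa-Ins library (5.58% of all regions) or lower in every one (2.65%). The number of Hox genes with a TSS peak was 5, 3, 1 and 2, with 1.75 fewer on average than in hi-77-/- empty (two-sided exact permutation p = 0.286). The 9aa-Ins libraries spread widely, and replicates 3 and 4 covered the fewest bases of the 4 windows of that group, 1144 and 1152 bp against 2534 and 2484 bp in replicates 1 and 2.

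Directly compared with GATA2, the variant again left 0 of 22 Hox regions opened or closed, against 4.44% of all regions, and 0 of 39 genes with a TSS peak gained or lost, against 0.410%. By rank, 2 of 22 regions were lower in every 9aa-Ins library, against 5.53% of all regions, and 0 were higher, against 10.4%. Besides the Hoxa3 intron, the other was the Hoxc10 TSS (chr15:102966469-102966880). It ranked 32368, 27188, 31955 and 31027 in the hi-77-/- GATA2 libraries, and 37019 and 45276 in 9aa-Ins replicates 1 and 2, with the peaks of replicates 3 and 4 at 56808 and 52651 and so outside the 49000. In hi-77+/+ empty it ranked 38778 and 43475 in replicates 1 and 3 and was not listed in replicates 2 and 4. In hi-77-/- empty it ranked 43866, 35574, 27030 and 37918. A rank is a place within the list of 1 library. The 9aa-Ins lists held 70319 to 107730 peaks on the chromosomes used, and those of hi-77-/- GATA2 49925 to 77829. At the Hoxa3 intron the deposited -log10 p was 18.7, 19.8, 19.7 and 11.3 in 9aa-Ins. It was 10.8, 15.2, 11.3 and 15.8 in hi-77-/- GATA2, so a lower rank was not a lower -log10 p there. Whether list length bears on these ranks was not tested. The number of Hox genes with a TSS peak differed by 0.750 between 9aa-Ins and GATA2, with GATA2 higher (two-sided exact permutation p = 0.657).

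The bases covered were also compared window by window, and no difference passed the tests. In the Hoxa window 626 ± 164 bp were covered in hi-77+/+ empty, 931 ± 315 bp in hi-77-/- empty, 608 ± 127 bp in hi-77-/- GATA2 and 826 ± 301 bp in hi-77-/- 9aa-Ins (SD, n = 4). In the Hoxb window the values were 360 ± 65.6, 572 ± 111, 330 ± 168 and 346 ± 234 bp in the same order. In the Hoxc window they were 248 ± 64.4, 326 ± 56.5, 275 ± 32.6 and 230 ± 233 bp, and in the Hoxd window 568 ± 68.3, 498 ± 26.7, 364 ± 78.3 and 427 ± 136 bp. Of 16 tests (4 windows in 4 comparisons), 0 passed an unadjusted p of 0.05, and the lowest adjusted value was 0.343. The closest were the Hoxb window with the -77 deletion (211 bp more, exact permutation p = 0.0571) and the Hoxd window with GATA2, where coverage dropped by 133 bp (exact permutation p = 0.0571). The smallest p possible was 0.0286, so a single difference could not pass adjustment over 16 tests. Covered bases also depend on peak width. The median width was 177 to 245 bp in hi-77-/- GATA2, 244 to 277 bp in hi-77-/- empty and 293 to 378 bp in 9aa-Ins libraries. The part of width in these values was not tested. The 9aa-Ins values had the highest SD in the Hoxb, Hoxc and Hoxd windows, with 0 to 553 bp covered in the Hoxc window, and the hi-77-/- empty values had it in the Hoxa window.

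**Figure D4:**
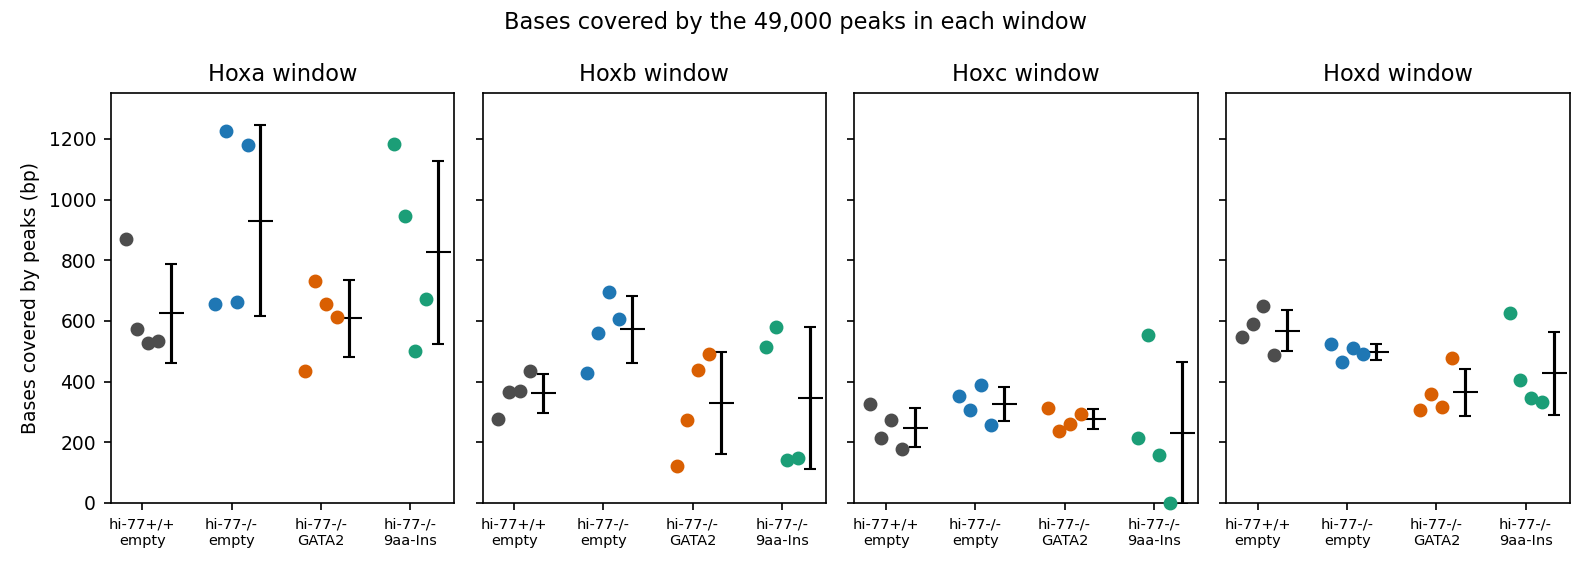
Bases covered by the 49000 peaks in each of the 4 windows (vertical axis, bp) for each library (points) by group, with the mean and SD of the 4 libraries beside them. In each of the 4 comparisons the groups compared overlap in all 4 windows, and the 9aa-Ins libraries spread from 0 bp upward in the Hoxc window.

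Of the 39 Hox genes, Hoxb8 had coding bases covered in the most libraries, 14 of 16 with all deposited peaks. Hoxb8 is both a member of the Hoxb cluster and the gene whose coding sequence was introduced to immortalize the cells, so reads from the vector and from the endogenous exons map to the same place. In the annotation the gene has a 5' untranslated region of 1058 bp, a first coding exon of 424 bp (chr11:96282963-96283386), an intron of 776 bp, a further coding stretch of 305 bp (chr11:96284163-96284467) and a 3' untranslated region of 848 bp. In the whole lists 30 peaks fell in the gene, 13 on the first coding exon and 17 on the second, in 14 of 16 libraries. No base of the intron or of the 5' untranslated region was covered in any of the 16 libraries. Of the 30 peaks, 26 lay wholly in coding sequence and 4 reached at most 27 bp past its end. On the first exon peaks stopped 16 bp before the splice site at the latest, and on the second they began 10 bp after it at the earliest.

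These exon ends are shown because they bound the intron that no peak entered, with the 30 coding bases in capitals and the 30 intron bases in lower case (GRCm38, plus strand).
End of coding exon 1, chr11:96283357-96283416: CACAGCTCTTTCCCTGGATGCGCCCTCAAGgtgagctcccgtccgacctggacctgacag
Start of coding exon 2, chr11:96284133-96284192: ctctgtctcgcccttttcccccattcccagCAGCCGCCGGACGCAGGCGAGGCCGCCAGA

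**Figure D5:**
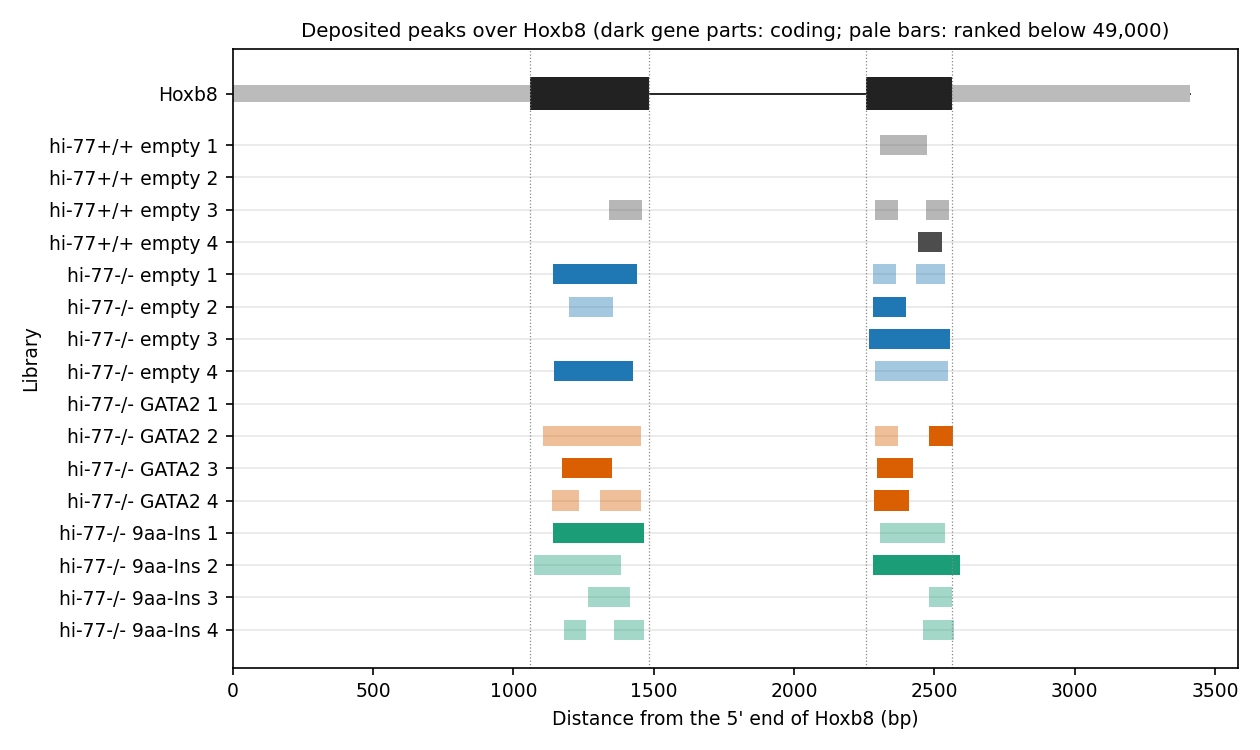
Deposited peaks over Hoxb8 (bars, coloured by group, pale where ranked below 49000) in each of the 16 libraries, against the distance in bp from the 5' end of the gene, which is drawn at the top with coding exons dark, untranslated regions grey and the intron as a line. The 30 peaks sit on the coding exons in 14 libraries, and the intron is empty in all 16.

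The other Hox genes had coding bases covered in fewer libraries, and their introns and untranslated regions were not measured in this way. With all deposited peaks, Hoxa13 and Hoxc6 followed with coding bases covered in 5 libraries each, and 24 of 39 genes had no coding base covered in any library. The same measure on Gata2, whose coding sequence the GATA2 and 9aa-Ins viruses carry, covered 0% of coding bases in all hi-77+/+ empty libraries, 7.64% to 8.75% in hi-77-/- empty, 44.4% to 63.2% in hi-77-/- GATA2 and 89.9% to 99.6% in hi-77-/- 9aa-Ins with the 49000 peaks. In the whole lists the hi-77+/+ empty libraries, which carry no Gata2 virus, were at 32.6%, 0%, 13.4% and 0%, those of hi-77-/- GATA2 at 46.5% to 73.7%, and the other groups at the same ranges as before. No library lacked the HoxB8 vector, so vector and endogenous Hoxb8 DNA cannot be told apart in these lists.

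The Hoxb8 peaks were weak, with ranks of 35682 to 73309 (median 51808) and fold enrichments of 4.63 to 8.83, and 11 of the 30 were among the 49000. The share of the 729 coding bases covered by the 49000 peaks was 0, 0, 0 and 11.4% in hi-77+/+ empty replicates 1 to 4, and 41.2%, 15.8%, 39.2% and 39% in the hi-77-/- empty libraries. The groups did not overlap (2.85% ± 5.69 against 33.8% ± 12, SD, n = 4), a difference of 30.9 percentage points with p = 0.0286 by the exact permutation test and 0.114 after adjustment over 4 comparisons, so it did not pass. In hi-77-/- GATA2 the mean was 17.5% ± 17.7 and in hi-77-/- 9aa-Ins 20.8% ± 24.1, with libraries at 0 in both groups. The other comparisons had exact permutation p of 0.257 (GATA2 against empty), 0.343 (9aa-Ins against empty) and 0.914 (between the viruses). With all deposited peaks the difference for the -77 deletion was 36.0 percentage points (exact permutation p = 0.0857). The shares were then 22.9%, 0%, 39.2% and 11.4% in hi-77+/+ empty and 66.1%, 37.2%, 39.2% and 74.9% in hi-77-/- empty, so the groups overlapped. A peak of hi-77+/+ empty replicate 3 on the second coding exon ranked 49113, just outside the 49000. With 24500 peaks per library the difference was 0, which was fixed beforehand because the best Hoxb8 peak ranked 35682. The lists of hi-77+/+ empty were longer (76187 to 111970 peaks on the chromosomes used) than those of hi-77-/- empty (64008 to 74397), and whether this bears on the ranks was not tested.

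Of genes that are no Hox gene, those listed within the clusters had no peak at their start among the 49000, and those beside the clusters varied. The microRNA genes Mir10a, Mir10b, Mir196a-1, Mir196a-2 and Mir196b had no peak within 500 bp of their start in any library, also with all deposited peaks. The long noncoding RNA genes Hottip, Hotairm1, Hotair, Hoxaas3, Hoxb5os and Haglr had none among the 49000 peaks, nor had the homeobox genes Evx1 and Evx2 that flank the Hoxa and Hoxd clusters. With all deposited peaks, Hotairm1 had one in 2 libraries and Hotair, Hoxb5os and Haglr in 1 each. The neighbours outside the clusters differed from one another. Skap2 beside Hoxa and Calcoco1 beside Hoxc had a TSS peak in 16 libraries and Mtx2 beside Hoxd in 15. Beside Hoxb, Ttll6 had one in 3 libraries and Skap1 in 0.

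The genes for partners and regulators of Hox proteins were open in most libraries. Of 30 such genes, 22 (73.3%) had a TSS peak in 16 libraries against 46.1% of all genes, 5 in 1 to 15 and 3 in none. By the call of 4 of 4 against 0 of 4 libraries, 0 gained or lost a TSS peak in any of the 4 comparisons, where 0.0775% to 1.04% of all genes did, so that 0 of 30 was near that background. Among 10 cofactors, 7 were open in all libraries, including Meis1, which binds DNA with Hox proteins, while Meis2 and Meis3 had a TSS peak in 13 libraries each and Pknox2 in 1. By group (hi-77+/+ empty first and hi-77-/- 9aa-Ins last), Meis3 had it in 4, 4, 4 and 1 libraries and Meis2 in 4, 3, 4 and 2. These differences were not tested, and the share of all genes with such a difference was not counted. The lowest -log10 p among the 49000 peaks was 8.75 to 11.7 in 9aa-Ins libraries and 5.35 to 7.43 in hi-77-/- GATA2 libraries. Whether this bears on the counts was not tested. Among 8 activators, Kmt2a, Men1, Psip1, Dot1l and Kat6a, the MLL partners and related factors, were open in 16 libraries, and Cdx1, Cdx2 and Cdx4, the caudal factors that switch on Hox genes in the embryo, in 0. Of 10 Polycomb genes 8 were open in 16 libraries, and Ezh1 and Ring1 were in 15. Ctcf and Rad21, which encode the boundary factor and a cohesin subunit, had a TSS peak in 16 libraries.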

How the data were processed

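ATAC-Seq peak lists of 16 libraries in 4 labelled groups were used. Per the labels and methods, the authors trimmed reads with Trim Galore 0.4.1, aligned them to mm10 with Bowtie2 2.2.5, kept unique reads, removed duplicates with Picard 2.26.0, shifted read ends for Tn5 and called peaks with MACS2 in each library without pooling. Each deposited peak has an integer score, a fold enrichment (a ratio to the background of its own library), -log10 p and q values and a summit offset from its start. Folds were not compared between libraries, because they depend on each library's background.

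After peaks on other sequences than chromosomes 1 to 19, X and Y had been left out, the rest were ranked by deposited -log10 p, then fold, then position, and the first 49000 of each library were kept. The lowest -log10 p kept was 5.35 to 11.7. Peaks overlapping by at least 1 bp were merged over all libraries. The difference in group means was tested by exact permutation, two-sided (4 against 4, smallest p 0.0286), with Benjamini-Hochberg adjustment within 16 tests of covered bases, 4 of Hox genes with a TSS peak and 4 of the Hoxb8 coding share. Python 3.11.15, numpy 2.4.6, pandas 2.3.3 and pysam 0.24.0 were used, and the code was tested on simulated peak lists. Sequences are from the GRCm38 genome and motifs were searched on both strands.

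The members and lists were chosen with earlier results of these data known. By rule, values were given for the Hox genes as counts of libraries, for Hoxb8, for Hox genes whose presence differed by 3 or more libraries (none did), for opened or closed regions and for regions found in 16 libraries. The Hoxc10 TSS, the Hoxb9 to Hoxb8 region and the Hoxc9 to Hoxc8 region were described after their values had been seen. Prac1 was not matched in the annotation, and some genes are not reported here by name. Alternatives are given in the closing section.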

Additional observations from a re-analysis of the deposited data

Results flagged for a closer look

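In 24 groups of 4 libraries (4 windows, the TSS count and the Hoxb8 share in 4 groups), 4 values lay far from the other 3 by Dixon's ratio, and chance gives about 1 in 20 groups. That rate does not apply to 2 of the 4, the TSS count and the Hoxb8 share of hi-77+/+ empty replicate 4, because the other 3 values were tied and any different value then gives the highest ratio. In hi-77+/+ empty replicate 1, peaks covered 869 bp of the Hoxa window, against 527 to 573 bp in replicates 2 to 4. In hi-77+/+ empty replicate 4, 1 Hox gene (Hoxa7) had a TSS peak, against 2 in each of the others. The same library was the only one of its group with Hoxb8 coding bases covered, at 11.4% against 0. In hi-77-/- empty replicate 2, peaks covered 15.8% of the Hoxb8 coding bases, against 39% to 41.2% in the others.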

How the results depend on the processing

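Of 381 tests under the alternatives, 0 passed an adjusted p of 0.05 (lowest 0.114). This says little about stability, since the smallest p was 0.0286 before adjustment with 4 against 4 libraries and 0.125 with the replicate block. Differences turned sign, the largest of them those of the Hoxa window with GATA2 (-323 bp) and the -77 deletion (306 bp). For covered bases, values that reversed were, with 24500 peaks, -170, 7.5 and 68.2 bp (Hoxa: -77 deletion, GATA2, 9aa-Ins), -21.8, 46.0 and -53.8 bp (Hoxb: -77 deletion, GATA2, 9aa-Ins against GATA2), -48.5, 35.2, 39.2 and 4 bp (Hoxc: -77 deletion, GATA2, 9aa-Ins, 9aa-Ins against GATA2) and -120 bp (Hoxd: 9aa-Ins against GATA2). With all deposited peaks they were 119, 75.2, 471 and 210 bp for 9aa-Ins (Hoxa, Hoxb, Hoxc, Hoxd), -6.75 bp for the -77 deletion and 586 bp for 9aa-Ins against GATA2 (Hoxc). For Hoxb, 9aa-Ins against GATA2 was -27.5 bp with peaks narrower than 1 kb and -38.0 bp with 50 kb flanks. With all deposited peaks the number of Hox genes with a TSS peak differed by 1.75 (9aa-Ins) and 4 (9aa-Ins against GATA2), and the Hoxb8 coding share by 3.12 points (9aa-Ins). The cause was not tested, though the lists differ in length.

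Leaving out each library gave ranges that crossed 0 for covered bases with 9aa-Ins in Hoxa (-225 to 3.00 bp) and with 9aa-Ins against GATA2 in Hoxb (-63.2 to 83.2), Hoxc (-152 to 32.1) and Hoxd (-3.83 to 99.8), and for the Hoxb8 share of that comparison (-4.63 to 11.4). For the -77 deletion it gave 1.92 to 3.25 Hox genes and 28.5 to 36.9 points of Hoxb8. Without Hoxb8, an alternative added after the data had been seen, the TSS difference was 2.25 genes. Also added later, all deposited peaks without hi-77+/+ empty replicate 2 gave 3.5.

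The count of 0 changed regions became 1 in some settings and stayed at 0 or 1 without single libraries. All deposited peaks gave 1 of 78 window regions for the -77 deletion (31.0 kb upstream of Hoxb9, closed), with 6708 of 182902 regions called genome-wide. They gave 1 of 78 for GATA2 (9.69 kb upstream of Hoxa13, closed), with 3983 of 182902 called. For 9aa-Ins against GATA2 they gave 1 of 78 (18.8 kb from the Hoxc4 start, opened), with 7394 of 182902 called. Peaks narrower than 1 kb gave 1 of 26 for GATA2 and 1 of 26 for 9aa-Ins (9.71 kb upstream of Hoxa13, closed in both). Genome-wide, 3728 (GATA2) and 1687 (9aa-Ins) of 101331 regions were then called. Flanks of 50 kb gave 1 of 25 for GATA2 and 1 of 25 for 9aa-Ins against GATA2, with 3586 and 4023 of 90541 regions called genome-wide. Both calls were a region 9.69 kb from Evx1 with peaks in 4 hi-77-/- empty, 0 hi-77-/- GATA2 and 4 hi-77-/- 9aa-Ins libraries. Without hi-77-/- empty replicate 2 the region 3.56 kb downstream of Hoxa13 was called opened by the deletion and closed by GATA2. That was 1 of 22 each, with 5917 and 4099 of 90541 regions called genome-wide. Without replicate 3 the region 9.71 kb upstream of Hoxa13 was closed by GATA2 and by 9aa-Ins. Again this was 1 of 22 each, with 4212 and 1707 of 90541 called. None of these single calls was tested against the share over all regions.

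Libraries with the same replicate number did not deviate together (correlations of -0.0167 to 0.0140). With the number as a replicate block, the exact sign-flip p was 0.125, the smallest 4 pairs allow, for the TSS count (2.75) and the Hoxb8 share (30.9) of the -77 deletion. Ranking peaks of all sequences before leaving out the others, also added later, gave 2.75 and 30.9.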

Other observations

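Outside the 6 regions found in most libraries, distal Hox regions came and went between libraries. A region 3.56 kb downstream of Hoxa13 (chr6:52257058-52257238) had a peak in 0 of 4 hi-77+/+ empty, 3 hi-77-/- empty, 0 hi-77-/- GATA2 and 2 hi-77-/- 9aa-Ins libraries. A region 9.71 kb upstream of Hoxa13 (chr6:52270589-52270736) had one in 1, 3, 0 and 0 libraries in that order. Upstream of Hoxb4 by 6.29 kb, a region (chr11:96311655-96311975) had a peak in 3, 2, 1 and 0 libraries, and a region 36.3 kb upstream of Hoxb9 (chr11:96235034-96235201) in 3, 2, 1 and 1. These were named after their values had been seen, were not tested, and had median ranks of 38348 to 43604.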
